A study of Homo sapiens with 26 samples.

Results

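Transcripts of 8 chemokine genes (CCL2, CCL20, CXCL1, CXCL2, CXCL3, CXCL8, CXCL12 and CXCL14) were followed in U2OS cells kept in acidic or neutral medium. They were taken by symbol from a table of 19704 gene symbols, and where a symbol had several rows the one with the highest mean was used. U2OS is an established human osteosarcoma line. The cells carried a luciferase reporter of the clock gene Arntl, in both media alike. The acidic medium had pH 6.3 and the neutral medium pH 7.4. Both were buffered without bicarbonate, by PIPES and HEPES at 25 mM each, and held 5% serum and 0.1 µM dexamethasone, a glucocorticoid given to set the cellular clocks to a common phase. Dishes were sealed with grease and kept at atmospheric carbon dioxide. Harvests at intervals of 4 h, the first at 4 h and the last at 52 h, gave 13 libraries at pH 6.3 and 13 at pH 7.4.

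Each pH and time had 1 library, so every SD and p below measures the spread over time points, which holds change over time as well as noise. The libraries of 4 to 24 h and those of 28 to 52 h came from dishes treated on different days, and both media were present on each day. Dishes of 4 and 28 h were harvested together, as were those of 8 and 32 h and so on. Values are FPKM, fragments scaled to transcript length and to the mapped fragments of the library, so levels of different genes can be compared. The spacing of the low values put 24 libraries between 20.0 and 36.1 M fragments (M for mega). The acidic library of 8 h held an estimated 11.3 M and the neutral one of 12 h an estimated 9.83 M. A finer reading of the same spacing would give a depth some whole multiple higher, so absolute depths are uncertain. Those 2 libraries also had the most rows at 0 (4615 and 4301). In 4 libraries the deviations of genes from their means correlated across genes with GC content beyond 0.5 in size, from −0.63 to 0.65 over all 26 libraries. They were the acidic one of 20 h (0.58) and the neutral ones of 28 h (0.65), 44 h (−0.54) and 48 h (−0.63). Within 28 to 52 h only neutral libraries were thus beyond that limit. Of 10 mesenchymal and bone markers 6 had a mean of at least 1 FPKM, among them VIM, RUNX2 and COL1A1. COL1A2 and BGLAP averaged 0.858 and 0.152 FPKM over all libraries, and SP7, an osteoblast factor, was listed at 0 in every library. The 6 endothelial markers summed to 0.547 to 1.74 FPKM at pH 6.3 and 1.02 to 3.32 FPKM at pH 7.4, and none had a mean of 1 FPKM. Of 11 leukocyte markers only CD68 and LCP1 reached it, with sums of 9.46 to 19.4 FPKM at pH 6.3 and 15.4 to 41.2 FPKM at pH 7.4, and PTPRC, which marks all white blood cells, had a mean of 0.289 FPKM. Of 6 epithelial markers 4 reached it (EPCAM, KRT8, KRT18 and CLDN4), with sums of 147 to 326 FPKM in acidic and 159 to 314 FPKM in neutral medium. Over the whole course, in the test described with the members below, CLDN4, EPCAM and KRT8 were lower at pH 6.3 by 1.37, 0.63 and 0.60 on the log2 scale (adjusted p = 1.50e-06, 8.55e-04 and 0.00143) and KRT18 did not pass. LCP1 was lower by 1.27 (adjusted p = 5.09e-05) and CD68 higher by 1.02 (adjusted p = 0.00583). Of the 6 mesenchymal and bone markers 3 were lower and 3 did not pass. The part of these markers in the results was not tested.

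Chemokines are small secreted proteins that direct the movement of cells by binding receptors coupled to G proteins. CXCL8 (interleukin-8) and its relatives CXCL1, CXCL2 and CXCL3 attract neutrophils through CXCR1 and CXCR2. CCL2 attracts monocytes through CCR2, and CCL20 attracts cells that carry CCR6. These genes are induced by inflammatory signals through NF-kB and AP-1, their mRNAs are often short-lived because of AU-rich elements, and glucocorticoids are known to lower the expression of several of them. CXCL12 and CXCL14 are regarded as homeostatic chemokines. CXCL12 acts through CXCR4 and the scavenging receptor ACKR3 and is made by many stromal cells, bone included.

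The promoters of 5 members are shown because CXCL8, CCL20 and CXCL3 had like courses in neutral medium, CXCL14 ran against CXCL8 in acidic medium from 28 h on, and CXCL1 has a promoter close to that of CXCL3 but almost no transcript. The likeness in neutral medium leaned on the 4 h library. Pearson's r between these genes on the log2 scale was 0.94 to 0.97 with that library and 0.67 to 0.69 without it. Each promoter is the 250 bases before the RefSeq transcription start (GRCh38.p14), 5′ to 3′ on the gene's strand. The windows are chr4:73740319-73740568 (plus strand), chr2:227813592-227813841 (plus), chr4:74038690-74038939 (minus), chr4:73869143-73869392 (plus) and chr5:135578992-135579241 (minus). The RefSeq start of CXCL1 is the first base of the span that GENCODE 29 gives the gene, and those of the other 4 lie inside it. Capitals mark matches on either strand to 4 motifs, and neighbouring or overlapping matches run together. The loose kappa-B motif is GGG and CC with any 5 bases between them. Its shorter form is GGAANTTCC. The AP-1 motif is TGANTCA. The TATA motif is TATAAA.
CXCL8: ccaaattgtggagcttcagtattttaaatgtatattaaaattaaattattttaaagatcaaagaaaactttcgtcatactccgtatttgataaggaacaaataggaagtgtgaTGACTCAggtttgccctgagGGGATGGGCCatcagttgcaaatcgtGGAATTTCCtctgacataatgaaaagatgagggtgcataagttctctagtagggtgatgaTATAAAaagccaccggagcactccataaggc
CCL20: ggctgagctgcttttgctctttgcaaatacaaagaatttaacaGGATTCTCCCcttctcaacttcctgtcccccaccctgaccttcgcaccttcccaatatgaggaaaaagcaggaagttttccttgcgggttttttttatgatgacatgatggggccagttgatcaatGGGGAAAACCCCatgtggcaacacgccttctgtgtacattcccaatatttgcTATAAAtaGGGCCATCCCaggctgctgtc
CXCL3: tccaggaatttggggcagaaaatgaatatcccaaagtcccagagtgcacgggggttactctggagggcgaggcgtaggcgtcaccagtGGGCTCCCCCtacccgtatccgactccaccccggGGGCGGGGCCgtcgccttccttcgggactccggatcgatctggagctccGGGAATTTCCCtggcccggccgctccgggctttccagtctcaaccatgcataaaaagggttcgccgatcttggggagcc
CXCL1: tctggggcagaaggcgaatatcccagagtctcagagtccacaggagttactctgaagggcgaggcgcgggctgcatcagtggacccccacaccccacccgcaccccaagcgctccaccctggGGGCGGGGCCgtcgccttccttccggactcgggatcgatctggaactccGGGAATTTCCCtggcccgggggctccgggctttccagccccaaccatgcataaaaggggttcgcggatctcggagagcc
CXCL14: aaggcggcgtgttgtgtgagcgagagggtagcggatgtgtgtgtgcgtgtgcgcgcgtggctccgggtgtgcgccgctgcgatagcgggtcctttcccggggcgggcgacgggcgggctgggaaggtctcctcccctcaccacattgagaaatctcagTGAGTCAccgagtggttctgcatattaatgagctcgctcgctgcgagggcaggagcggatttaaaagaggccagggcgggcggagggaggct

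The table of RefSeq promoters held 7 of the 8 members. The loose kappa-B motif was found in 6 of them and in 54.4% of all 34943 promoters. The shorter form, which was added after the sequences had been read, was found in 4 of 7, at 91 to 83 bases before the start in CXCL8, at 78 to 70 in CXCL3 and CXCL1, and at 77 to 69 in CXCL2. It was present in 0.824% of all promoters. This contrast is no test, since the form was added after reading and the promoters of CXCL1, CXCL2 and CXCL3 are alike. An AP-1 match stood 137 to 131 bases before the start of CXCL8 and 92 to 86 before that of CXCL14, against 6.59% of all promoters. A TATA match stood 31 to 26 bases before the start of CXCL8 and 29 to 24 before that of CCL20, against 10.8% of all promoters. The palindromic glucocorticoid motif (GNACA, any 3 bases, TGTNC), present in 0.326% of all promoters, was in none of the 7. Over their 250 bases CXCL1 and CXCL3 were 81.4% identical, CXCL2 and CXCL3 73.3%, and CXCL8 and CXCL3 45.0%. A match is a string of letters and does not show that a factor binds there.

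The members fell into 3 kinds by level. CCL2, CCL20, CXCL8 and CXCL14 averaged at least 1 FPKM over the 26 libraries and entered the tests with 11838 genes. CXCL12 (mean 0.993 FPKM) and CXCL3 (0.986 FPKM) lay just under that limit and were tested only in the fit without a filter, over 18288 genes. CXCL1 was listed at 0 in 24 of 26 libraries and CXCL2 in 20 of 26. CXCL1, CXCL2 and CXCL3 share transcript sequence, and how fragments common to them were assigned is not given in the sources used here, so the levels of these 3 genes are uncertain. At pH 6.3 the order of mean levels was CXCL14 at 34.5 ± 35.4, CCL2 at 30.4 ± 9.42, CCL20 at 27.0 ± 13.5, CXCL8 at 20.0 ± 15.3, CXCL3 at 1.13 ± 0.36 and CXCL12 at 0.373 ± 0.17 FPKM (SD, n = 13 time points). The leading 4 lay within 1 SD of their neighbours. At pH 7.4 the order was CCL2 at 155 ± 75.6, CXCL14 at 79.0 ± 15.6, CXCL8 at 11.5 ± 29.3, CCL20 at 6.24 ± 7.88, CXCL12 at 1.61 ± 1.09 and CXCL3 at 0.845 ± 0.623 FPKM. There the means of CXCL8 and CCL20 differed by less than either SD, and those of CXCL12 and CXCL3 by less than the larger of their SDs. In this order CXCL8 stood above CCL20 only through its 4 h library, without which CXCL8 averaged 3.37 ± 1.60 and CCL20 4.07 ± 0.77 FPKM (SD, n = 12).

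**Figure D1:**
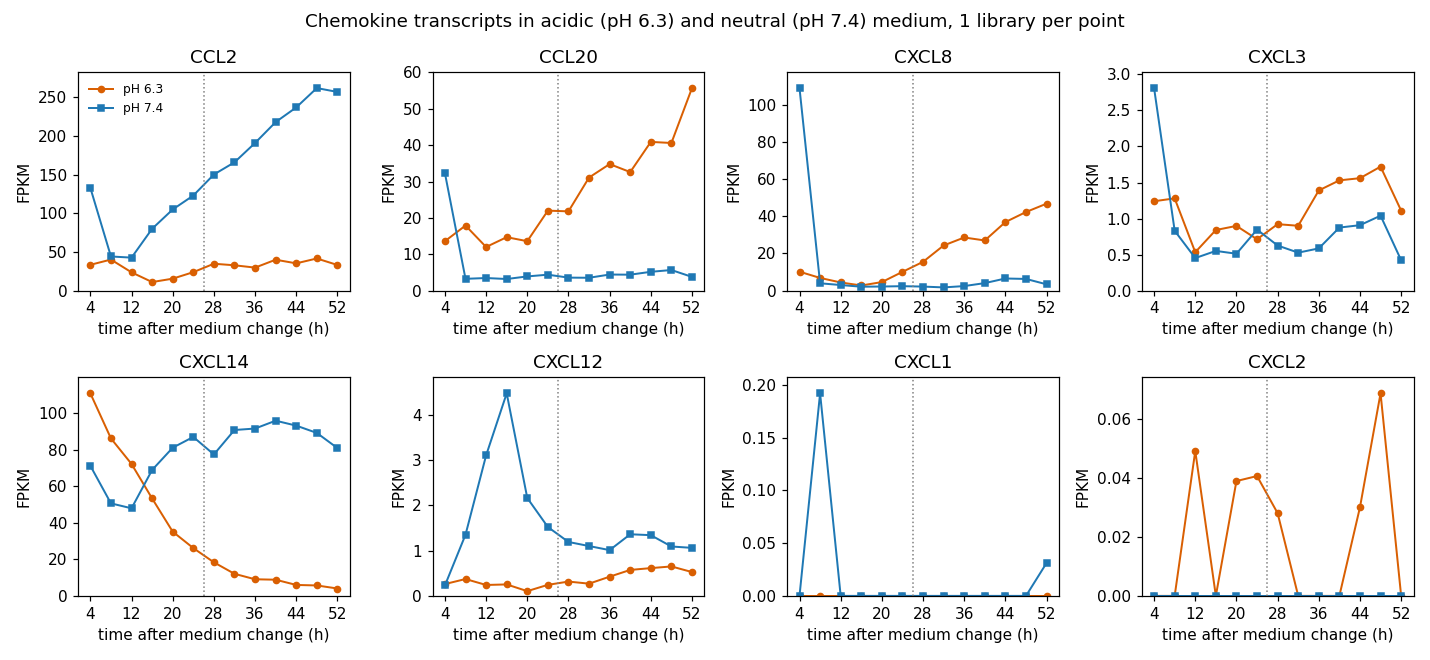
FPKM of the 8 chemokine genes (linear axes from 0) against hours after the medium change, at pH 6.3 (circles) and pH 7.4 (squares), 1 library per point, with a dotted line between the 2 sets of dishes. CCL20 and CXCL8 climb at pH 6.3 to 55.7 and 46.8 FPKM at 52 h, CCL2 climbs at pH 7.4 to 262 FPKM at 48 h, and CXCL14 declines at pH 6.3 from its first to its last library.

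The comparison of acidic with neutral medium over the whole course split the 4 tested members evenly. CCL20 and CXCL8 were higher at pH 6.3, and CCL2 and CXCL14 were lower. As a difference in log2(FPKM + 1), a scale that makes changes of low genes look smaller, CXCL8 differed by 1.54 (SE 0.43, adjusted p = 0.00591) and CXCL14 by −1.86 (SE 0.42, adjusted p = 0.00134) in limma, fitted across all tested genes and within time points. The differences of CCL20 and CCL2 were 2.12 (SE 0.28, adjusted p = 1.09e-05) and −2.18 (SE 0.20, adjusted p = 4.84e-07). Of all 11838 genes 22.4% passed as higher and 37.3% as lower, 59.7% in all, so that a call by itself was common. The median difference of all genes was −0.12, and after quantile normalization −0.02. Without 6 libraries, the 2 of low depth and the 4 with a GC correlation beyond 0.5, the difference of CXCL8 was 1.56 and did not pass (SE 0.71, adjusted p = 0.0866). These 6 lay at different times, and a library left alone at its time adds nothing to a difference within time points. In effect their whole pairs were left out. Quantile normalization moved the split of calls from 2651 higher and 4415 lower to 3348 and 3611, and the 4 members kept their calls and directions after it. In RNA from whole dishes, fewer cells that make a transcript and less of it per cell cannot be told apart.

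CCL20, which binds CCR6, was at 13.6 FPKM at 4 h, 12.0 FPKM at 12 h, 21.8 FPKM at 28 h and 55.7 FPKM at 52 h in acidic medium. In neutral medium it was at 32.3 FPKM at 4 h and then between 3.20 and 5.67 FPKM at the other 12 times. From 8 h on every acidic library lay above every neutral one, while at 4 h the order was the opposite. CCL20 was thus higher at pH 6.3 at 12 of 13 times.

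CXCL8, the neutrophil attractant interleukin-8, followed a valley in acidic medium, with 10.2 FPKM at 4 h, 2.77 FPKM at 16 h, 15.5 FPKM at 28 h and 46.8 FPKM at 52 h. In neutral medium it was at 109 FPKM at 4 h, 3.96 FPKM at 8 h and between 1.74 and 6.54 FPKM from 8 to 52 h. The neutral 4 h value was 27.5 times that at 8 h and was the highest CXCL8 value of all 26 libraries. CXCL8 was higher at pH 6.3 at 12 of 13 times, by 13.7 times at 52 h and by 1.31 times at 16 h.

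CCL2, the monocyte attractant, had its lowest acidic value at 16 h with 11.1 FPKM, a median of 33.2 FPKM and its highest acidic value at 48 h with 41.6 FPKM. In neutral medium it was at 133 FPKM at 4 h, at 44.2 and 42.7 FPKM at 8 and 12 h, and at 80.0 FPKM at 16 h, 150.2 FPKM at 28 h and 262 FPKM at 48 h. The acidic libraries all lay below the neutral ones, the closest pair being that of 8 h with 40.2 FPKM at pH 6.3 and 44.2 FPKM at pH 7.4. CCL2 was lower at pH 6.3 at 13 of 13 times.

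CXCL14, a chemokine of epithelia and some stromal cells, was the member with the steadiest course. In acidic medium it was at 111 FPKM at 4 h, 53.4 FPKM at 16 h, 18.4 FPKM at 28 h and 4.05 FPKM at 52 h, lower at each of 12 successive steps, and the first value was 27.4 times the last. In neutral medium it ran between 48.0 FPKM at 12 h and 96.0 FPKM at 40 h, with a median of 81.2 FPKM. The courses crossed between 12 and 16 h. The acidic library was the higher one at 4, 8 and 12 h and the lower one at the 10 later times.

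CXCL12 was low at both pH. In acidic medium it lay between 0.105 and 0.65 FPKM with a median of 0.316 FPKM. In neutral medium it was at 0.23 FPKM at 4 h, at 4.47 FPKM at 16 h and between 1.01 and 1.52 FPKM from 24 h on. It was lower at pH 6.3 at 12 of 13 times, and from 8 h on the groups did not overlap, a separation that was not counted over all genes. In the fit without a filter, where 45.9% of genes passed, its difference was −0.84 (SE 0.16, adjusted p = 6.41e-04). CXCL3 had 0.533 to 1.72 FPKM at pH 6.3 and 0.422 to 2.81 FPKM at pH 7.4, with overlapping groups, and its difference of 0.24 did not pass (SE 0.10, adjusted p = 0.0551).

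**Figure D2:**
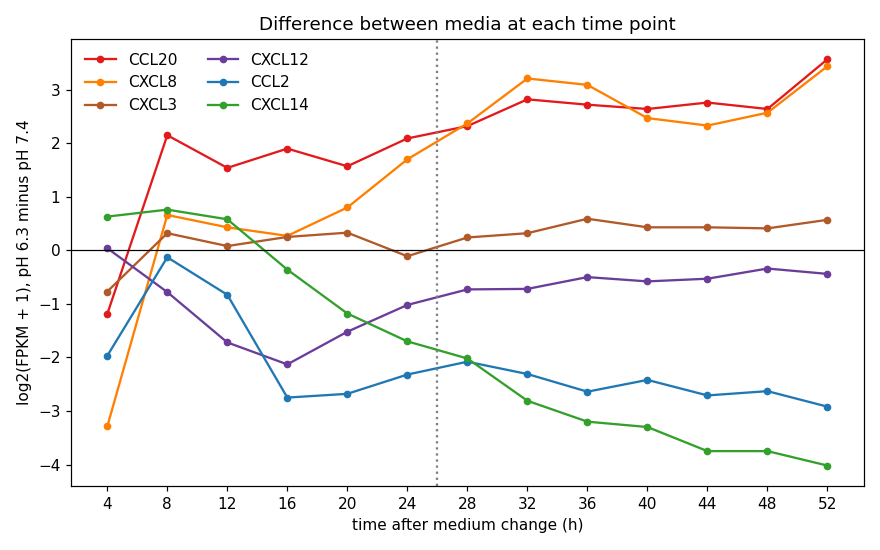
Difference in log2(FPKM + 1), pH 6.3 minus pH 7.4, at each time for the 6 members with measurable levels. CCL20 and CXCL8 start below 0 at 4 h and stay above it from 8 h, CXCL14 starts above 0 and ends at −4.02, and CCL2 is below 0 throughout.

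The 2 sets of dishes were then taken separately. Within 28 to 52 h all 4 tested members passed, where 27.0% of genes passed as higher and 36.4% as lower (63.3% in all). In that stretch CCL20 averaged 36.8 ± 10.6 FPKM at pH 6.3 and 4.37 ± 0.815 FPKM at pH 7.4 (SD, n = 7), a difference of 2.78 (SE 0.13, adjusted p = 9.23e-07). CXCL8 averaged 31.6 ± 11 FPKM at pH 6.3 and 3.82 ± 1.94 FPKM at pH 7.4, also a difference of 2.78 (SE 0.15, adjusted p = 1.60e-06). CCL2 averaged 35.4 ± 4.14 FPKM at pH 6.3 and 212 ± 43.9 FPKM at pH 7.4, a difference of −2.53 (SE 0.10, adjusted p = 4.86e-07). CXCL14 averaged 9.18 ± 4.86 FPKM at pH 6.3 and 88.5 ± 6.76 FPKM at pH 7.4, a difference of −3.26 (SE 0.22, adjusted p = 4.01e-06). No acidic value of these 4 genes overlapped with a neutral one in this stretch. How many of all genes were separated in this way was not counted, here or for CCL20 and CCL2 above. In the fit without a filter, where 20.0% of genes passed as higher and 28.0% as lower, CXCL3 was higher by 0.43 (SE 0.05, adjusted p = 3.30e-04) and CXCL12 lower by 0.55 (SE 0.05, adjusted p = 1.21e-04).

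Within 4 to 24 h only CCL2 and CCL20 passed, where 8.57% of genes passed as higher and 18.1% as lower (26.7% in all). CCL2 averaged 24.6 ± 10.9 FPKM at pH 6.3 and 88.0 ± 39.0 FPKM at pH 7.4 (SD, n = 6), a difference of −1.78 (SE 0.32, adjusted p = 0.00642). CCL20 averaged 15.6 ± 3.69 FPKM at pH 6.3 and 8.43 ± 11.7 FPKM at pH 7.4, a difference of 1.35 (SE 0.39, adjusted p = 0.0296). Leaving out any of the pairs of 8, 12, 16, 20 and 24 h ended that call, with adjusted p from 0.0735 to 0.0876. CXCL8 averaged 6.49 ± 3.12 FPKM at pH 6.3 and 20.4 ± 43.3 FPKM at pH 7.4, the neutral mean being above the acidic one through its 4 h library alone. On the log2 scale it differed by 0.10 (SE 0.51, 95% interval −1.03 to 1.22, adjusted p = 0.904), and without the 4 h pair by 0.77 (adjusted p = 0.0241). CXCL14 averaged 64.0 ± 32.1 FPKM at pH 6.3 and 67.9 ± 15.8 FPKM at pH 7.4, a difference of −0.21 (SE 0.31, adjusted p = 0.627). CXCL12 without the filter differed by −1.19 (SE 0.28, adjusted p = 0.0541), where 8.50% of genes passed, and CXCL3 by 0.02 (adjusted p = 0.989).

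The difference between both stretches was tested directly, as the effect of acid at 28 to 52 h minus that at 4 to 24 h. It passed for CXCL14 (−3.05, SE 0.42, adjusted p = 7.34e-04), CXCL8 (2.69, SE 0.58, adjusted p = 0.00697) and CCL20 (1.44, SE 0.44, adjusted p = 0.0352), where 10.5% of genes passed as higher and 6.56% as lower (17.1% in all). The value of CCL2 was −0.75 (SE 0.36, 95% interval −1.52 to 0.02, adjusted p = 0.165). Time and set of dishes cannot be told apart in this test. Without the 6 libraries of low depth or uneven GC content, and so in effect without their pairs, none of the 3 passed. The values were −2.85 for CXCL14 (adjusted p = 0.0562), 3.49 for CXCL8 (adjusted p = 0.0942) and 2.0 for CCL20 (adjusted p = 0.152). Only 2 of all genes passed then. Leaving out any of the pairs of 12, 32, 36, 40, 44 and 52 h also ended the call of CCL20, with values of 1.3 to 1.47 and adjusted p from 0.0564 to 0.0763. Without the 4 h pair the value of CCL20 was 0.93 and passed.

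The course in each medium was described by its slope on the log2(FPKM + 1) scale per 24 h. The fit takes libraries as independent around a straight line. Deviations of successive times may be correlated, which was not modelled. At pH 6.3 CCL20 rose by 1.01 (SE 0.24, adjusted p = 0.00111) and CXCL8 by 1.67 (SE 0.44, adjusted p = 0.00256), while CXCL14 fell by 2.34 (SE 0.10, adjusted p = 4.55e-16). The slope of CCL2 there was 0.33 (SE 0.21, adjusted p = 0.197), and it passed without the 4 h pair (0.48, adjusted p = 0.044) and without both the 8 and 12 h pairs (0.51, adjusted p = 0.0474). Rising slopes passed for 28.1% of genes and falling ones for 19.8% (47.9% in all). At pH 7.4 CCL2 rose by 1.14 (SE 0.21, adjusted p = 2.62e-04) and CXCL14 by 0.35 (SE 0.10, adjusted p = 0.0106), where 9.39% of genes rose and 8.46% fell (17.9% in all). The call of CXCL14 was lost without the 8 h pair (0.29, adjusted p = 0.0578). CCL20 and CXCL8 had slopes of −0.35 (adjusted p = 0.338) and −0.64 (adjusted p = 0.334) at pH 7.4, which were 0.24 (adjusted p = 0.114) and 0.38 (adjusted p = 0.248) without the 4 h pair.

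The courses at both pH differed for each of the 4 genes. The slope at pH 6.3 minus that at pH 7.4 was 2.31 for CXCL8 (SE 0.41, adjusted p = 9.89e-04), 1.36 for CCL20 (SE 0.30, adjusted p = 0.00414) and −2.69 for CXCL14 (SE 0.16, adjusted p = 1.71e-07). That of CCL2 was −0.81 (SE 0.25, adjusted p = 0.0276). In this test 15.5% of genes passed as higher and 10.8% as lower (26.3% in all). Without the 4 h pair the value of CCL20 was 0.82, and without the 6 libraries 2.06, and it passed in both fits. Leaving out the pair of 8, of 12 or of 52 h ended the call of CCL2, with values of −0.52, −0.68 and −0.83 (adjusted p = 0.0908, 0.066 and 0.0543), and without both the 8 and 12 h pairs its value was −0.28 (adjusted p = 0.182). With the set of dishes as a term, so that slopes are those within sets, CXCL14 kept its calls at pH 6.3 (−2.04, adjusted p = 1.73e-07) and for the difference (−2.33, adjusted p = 0.00627), but not at pH 7.4 (0.28, adjusted p = 0.541), and no other member kept a call. CXCL8 and CCL20 then had slopes of 0.72 and 0.81 at pH 6.3 (adjusted p = 0.606 and 0.272), and differences of 1.82 and 1.45 (adjusted p = 0.229 and 0.20). CCL2 then had a slope of 0.78 at pH 7.4 (adjusted p = 0.442) and a difference of −1.17 (adjusted p = 0.21). Without a filter CXCL3 had a difference of 0.38 (SE 0.12, adjusted p = 0.0409, with 18.5% of genes called) and CXCL12 one of 0.36 (SE 0.24, adjusted p = 0.343).

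**Figure D3:**
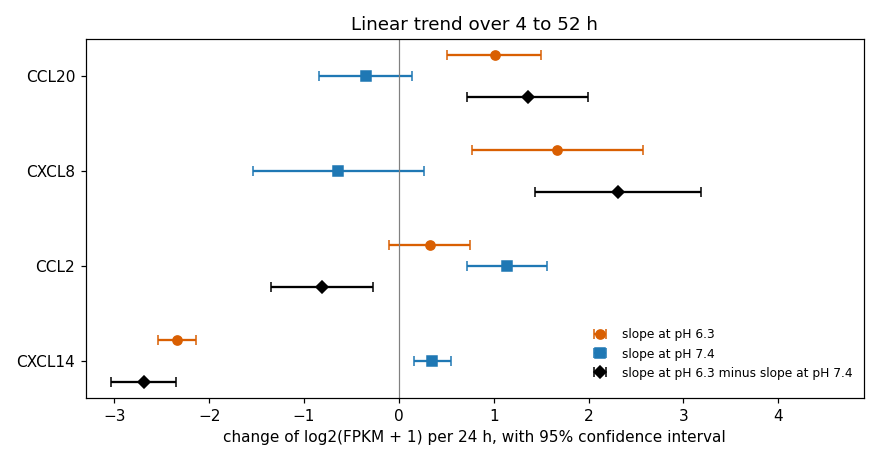
Linear slope of log2(FPKM + 1) per 24 h with its 95% confidence interval for the 4 tested members, at pH 6.3 (circles), at pH 7.4 (squares), and their difference (diamonds). CXCL14 has the narrowest interval and opposite signs in the 2 media, and the slopes of CCL20 and CXCL8 at pH 7.4 have intervals that include 0.

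Within a medium some members ran together. Pearson's r of log2(FPKM + 1) between CCL20 and CXCL8 was 0.94 at pH 6.3 and 0.97 at pH 7.4 over 13 libraries, and 0.68 at pH 7.4 without the 4 h library. CXCL14 ran against CCL20 (r = −0.94) and CXCL8 (r = −0.88) at pH 6.3 over the whole course. Within 28 to 52 h these values were −0.98 and −0.99 (7 libraries), and within 4 to 24 h they were −0.48 and 0.08 (6 libraries). At pH 7.4 it ran with CCL2 (r = 0.90), while at pH 6.3 that correlation was −0.40. These values describe courses over shared libraries and times and carry no test. The members belong to distinct genes, and only CXCL1, CXCL2 and CXCL3 shared transcript sequence with other members, in 4.81%, 12.5% and 6.01% of their windows of 50 bases.

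Among 8887 genes that averaged at least 5 FPKM, those whose courses were most like a member in both media were picked by the smaller of the 2 correlations within pH 6.3 and within pH 7.4 (13 libraries each). For CCL20 they were NSUN2 (0.97 and 0.91), MED1 (0.89 and 0.94) and CLINT1 (0.94 and 0.88). For CXCL8 they were MED1 (0.93 and 0.91), PNO1 (0.89 and 0.91) and CHUK (0.93 and 0.88), the last of which encodes the kinase IKK-alpha of the NF-kB pathway. The likeness of MED1, a subunit of the Mediator complex, was one of shape and not of level, since its mean was 35.5 FPKM at pH 6.3 and 35.3 FPKM at pH 7.4. The pH 7.4 values for CCL20 and CXCL8 include the 4 h library, where these members were far above their later levels. CXCL8 was at 109 FPKM there and at most 6.54 FPKM later, and CHUK at 40.3 FPKM and then 24.4 to 34.1 FPKM. Correlations with these genes without that library were not computed. For CXCL14 the most alike genes were ZNF217 (0.97 and 0.96), DKK3 (0.90 and 0.92) and PTPN14 (0.98 and 0.90). For CCL2 they were SPAG1 (0.93 and 0.96), OSTM1 (0.88 and 0.89) and PARD3 (0.87 and 0.96).

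CXCL8, CXCL1, CXCL3 and CXCL2 lie in a cluster of 9 CXC genes on chromosome 4 that spans 359 kb in GRCh38 (GENCODE 29). CXCL8 occupies 73740506 to 73743716 on the plus strand, CXCL1 73869393 to 73871242 on the plus strand, CXCL3 74036589 to 74038807 on the minus strand and CXCL2 74097035 to 74099293 on the minus strand. Only CXCL8 and CXCL3 had means above 0.2 FPKM. CXCL1 was at 0 in all 13 libraries of pH 6.3, and at pH 7.4 it was above 0 only at 8 h (0.192 FPKM) and 52 h (0.0312 FPKM). CXCL2 was above 0 in 6 libraries of pH 6.3, with at most 0.0688 FPKM, and in 0 of 13 at pH 7.4. In the fit without a filter CXCL2 passed with a difference of 0.03 (adjusted p = 0.0326), a size that rests on these low values. The part of sequence shared with CXCL3 was not tested. CXCL5, an attractant of neutrophils, averaged 0.112 FPKM at pH 6.3 and 0.14 FPKM at pH 7.4. PPBP, PF4 and CXCL6 averaged less than CXCL5 in both media. PF4V1, named after its values were seen because it completes the cluster, was at 0 in all 26 libraries. The other members lie elsewhere. CCL2 is on chromosome 17 (34255218 to 34257203, plus), CCL20 on chromosome 2 (227805739 to 227817564, plus), CXCL12 on chromosome 10 (44370165 to 44386493, minus) and CXCL14 on chromosome 5 (135570679 to 135579279, minus).

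**Figure D4:**
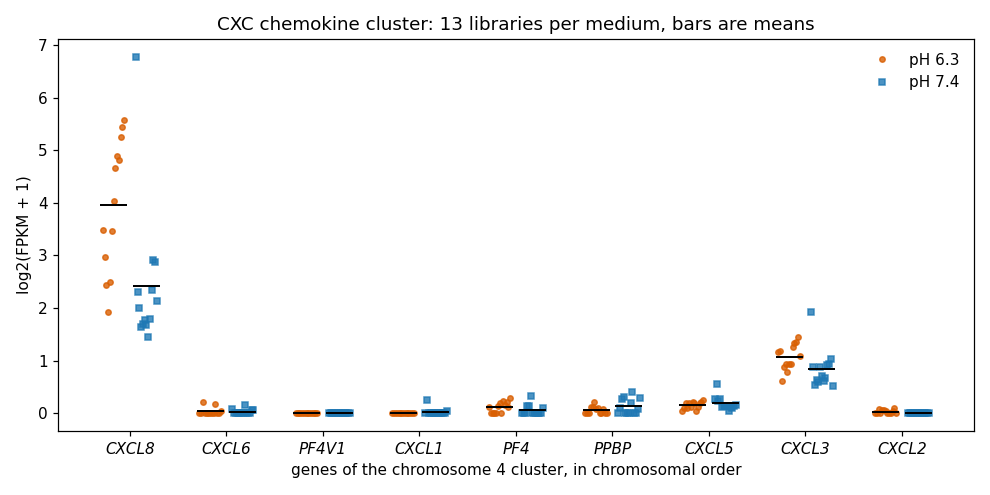
log2(FPKM + 1) of the 9 genes of the chromosome 4 cluster in chromosomal order, with 13 libraries per medium in order of time (points) and their means (black lines), pH 6.3 left of pH 7.4. CXCL8 spans the widest range, CXCL3 lies near 1, and the other 7 genes lie near 0 in both media.

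The neutral 4 h library stood apart from the 12 later neutral ones for several members. CXCL3 was at 2.81 FPKM there and at no more than 1.04 FPKM later, beside the values of CXCL8 (109 FPKM, then at most 6.54) and CCL20 (32.3 FPKM, then at most 5.67). CCL2 was at 133 FPKM at 4 h in neutral medium, within its later range. The neutral 28 h dish, harvested together with that of 4 h, had 2.19 FPKM of CXCL8 and 3.58 FPKM of CCL20. The estimated depth of the neutral 4 h library was 22.4 M and its GC correlation was −0.02. That of the neutral 28 h library was 0.65, the highest of all 26 libraries. In acidic medium at 4 h CXCL8, CCL20 and CXCL3 were at 10.2, 13.6 and 1.24 FPKM, within the range of later times.

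Genes of the NF-kB list, which holds the factors, their inhibitors and their inducers, were looked at in the same way after the member values were known. Of the 19 such genes that entered the tests, 1 (5.26%) was highest at 4 h at pH 6.3, against 22.6% of all 11838 genes. At pH 7.4 it was 10 (52.6%), against 15.5% of all genes. NFKB1, which encodes the p105 precursor of p50, was at 30.8 FPKM at 4 h and 18.6 to 45.8 FPKM later at pH 6.3. At pH 7.4 it was at 87.2 FPKM at 4 h and 17.8 to 25.1 FPKM later. NFKB1 was picked after its values were seen. Of the 19 genes 2 (10.5%) were at least 2 times above all later values at pH 7.4, against 0.693% of all genes. RELA, at 29.6 FPKM at 4 h and 20.1 to 63.9 FPKM later, lay within its later range there. NFKBIA, the inhibitor IkB-alpha, was highest at 4 h in both media, with 196 FPKM at pH 6.3 and 108 FPKM at pH 7.4. No time point has a second library, so what belongs to the medium and what to that dish cannot be told apart.

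**Figure D5:**
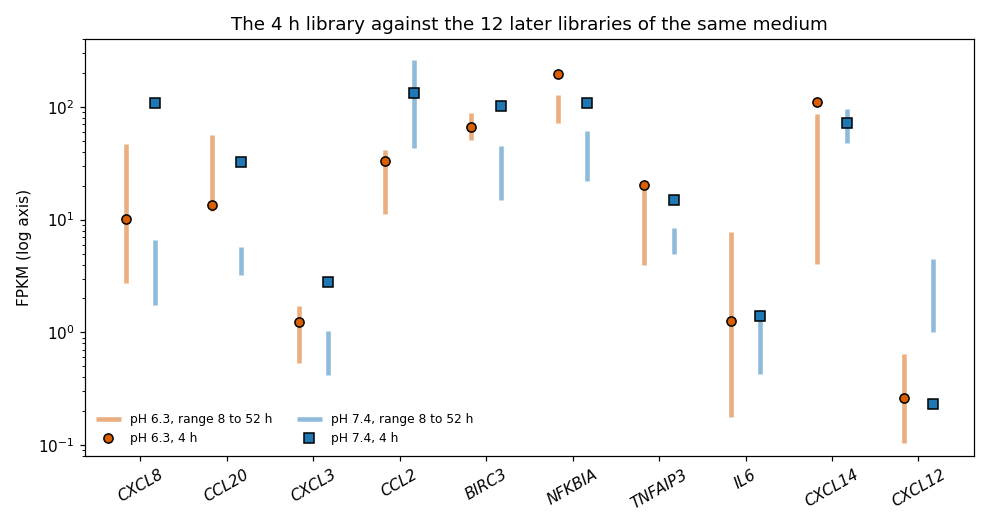
FPKM (log axis) of the 4 h library (points) and the range of the 12 libraries from 8 to 52 h (thick lines) for 6 members and 4 genes of the NF-kB list chosen after their values were seen, pH 6.3 left of pH 7.4. At pH 7.4 the 4 h points of CXCL8, CCL20, CXCL3, BIRC3, NFKBIA and TNFAIP3 lie above the later range, and that of CXCL12 lies below it.

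Over the whole course 11 of the 19 measured NF-kB genes were higher at pH 6.3, 3 were lower and 5 did not pass, with a median difference of 0.45 against −0.12 over all genes. Of all genes 22.4% were higher and 37.3% lower. BIRC3, an inhibitor of apoptosis, averaged 65.3 ± 9.11 FPKM at pH 6.3 and 27.9 ± 23.4 FPKM at pH 7.4 (SD, n = 13), a difference of 1.43 (SE 0.18, adjusted p = 7.50e-06). NFKBIA averaged 100.1 ± 33.7 FPKM at pH 6.3 and 40.1 ± 22.7 FPKM at pH 7.4, a difference of 1.37 (SE 0.11, adjusted p = 1.90e-07). NFKBIE, another inhibitor, and IL1R1, the interleukin-1 receptor, were lower by 0.45 (SE 0.16, adjusted p = 0.0221) and 0.33 (SE 0.13, adjusted p = 0.0346) on the log2 scale. Within 28 to 52 h 12 were higher and 0 lower (median 0.76), where 27.0% of all genes were higher and 36.4% lower. Within 4 to 24 h 4 were higher and 2 lower (median 0.08), where 8.57% of all genes were higher and 18.1% lower. The slope at pH 6.3 rose for 11 of them and fell for 0 (28.1% and 19.8% of all genes), and the slope difference between media was higher for 10 and lower for 0 (15.5% and 10.8% of all genes).

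All 9 genes of the list of regulators of AU-rich mRNA, proteins and kinases that set the stability of chemokine transcripts, were measured, and 4 were higher at pH 6.3, 1 was lower and 4 did not pass (median 0.24). With 59.7% of all genes called, 5 calls among 9 genes were near the background. ZFP36 encodes tristetraprolin, which promotes decay of such mRNAs. It averaged 7.69 ± 4.48 FPKM at pH 6.3 and 1.20 ± 0.365 FPKM at pH 7.4 (SD, n = 13), a difference of 1.86 (SE 0.17, adjusted p = 5.33e-07). DUSP1, the phosphatase that turns off p38 and is itself induced by glucocorticoids, was at 121 to 214 FPKM at pH 6.3. At pH 7.4 it was at 15.4 to 71.4 FPKM, with no overlap, a separation that was not counted over all genes. HNRNPD (AUF1), which binds AU-rich elements, averaged 315 ± 59.1 FPKM at pH 6.3 and 422 ± 30.8 FPKM at pH 7.4. It was lower by 0.44 on the log2 scale (SE 0.08, adjusted p = 3.04e-04).

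Of 35 other chemokine ligands 6 were measured at a mean of 1 FPKM or more, and 1 was higher at pH 6.3, 3 were lower and 2 did not pass (median −0.29). These 4 calls among 6 genes were also near the background of 59.7%. CCL26 (eotaxin-3) averaged 14.5 ± 4.14 FPKM at pH 6.3 and 6.16 ± 2.11 FPKM at pH 7.4 (SD, n = 13), a difference of 1.11 (SE 0.21, adjusted p = 2.54e-04). CCL24 (eotaxin-2) was lower by 0.86 (SE 0.30, adjusted p = 0.0221), and at pH 6.3 it was at 12.5 FPKM at 4 h and 0.35 FPKM at 52 h. Its slope at pH 6.3 fell by 1.83 per 24 h (SE 0.17, adjusted p = 4.87e-09), the same direction as that of CXCL14. These 2 eotaxins bind the same receptor, CCR3, and differed between media in opposite directions. CCL28 averaged 0.874 ± 0.317 FPKM at pH 6.3 and 1.80 ± 0.64 FPKM at pH 7.4. It was lower by 0.56 (SE 0.13, adjusted p = 0.00188).

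Of 23 chemokine receptors 2 had a mean of at least 1 FPKM. ACKR3, which binds CXCL12 and removes it, averaged 10.4 ± 2.90 FPKM at pH 6.3 and 11.1 ± 6.57 FPKM at pH 7.4 (SD, n = 13), a difference of 0.06 (95% interval −0.45 to 0.56, adjusted p = 0.857). It fell by 0.92 per 24 h at pH 7.4 (SE 0.18, adjusted p = 6.97e-04), and its slopes differed between media by 1.04 (SE 0.29, adjusted p = 0.0166). CXCR5, the receptor of CXCL13, averaged 1.75 ± 0.74 FPKM at pH 6.3 and 0.912 ± 0.513 FPKM at pH 7.4, a difference of 0.55 (SE 0.13, adjusted p = 0.00241). Among the receptors under 1 FPKM, ACKR1 averaged 0.649 FPKM over both media and was at 0 in no library. The other receptors named above for the members were lower. CXCR1 was listed at 0 in all 26 libraries, CXCR2 averaged 0.0104 FPKM, CXCR4 0.00679 FPKM, CCR2 0.0107 FPKM and CCR6 0.136 FPKM over both media.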

How the data were processed

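Polyadenylated RNA was made into libraries with a stranded kit, per the labels' protocols, with RNA integrity numbers of 8.7 to 10.0 (median 9.7). The authors deposited 1 table of FPKM values with 19806 rows and 26 library columns. The submitters' processing notes name STAR, Cufflinks and hg38. Versions, annotation and strand handling were not given in the sources used here, so antisense or overlapping transcripts cannot be separated. For 101 symbols on more than 1 row the row with the highest mean was kept.

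Depth is not in the table. It was estimated from the lowest FPKM values of 1808 genes annotated with 1 transcript, 1000 bases or longer, taking its length minus 200 bases as the effective length. Of the values up to 3.5 fragments, 87.7% to 94.4% per library then lay within 0.1 of a whole number. FPKM are not counts, so no count test was used. No library pair held identical values.

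log2(FPKM + 1) was tested for the 11838 genes that averaged 1 FPKM or more, with limma 3.58.1 (R 4.3.3, moderated with a trend in the mean), two-sided, with Benjamini-Hochberg adjustment over all of them at 0.05. Time points entered as blocks, since acidic and neutral dishes of each time were collected at once, per the labels' protocols. The slopes within each medium had no such block, only an intercept and a slope per pH. The correlation of the deviations of the 2 libraries of a time point from their group means ran from −0.51 to 0.42 across genes. The steps were tested on simulated data. Their noise was independent, with no correlation between successive times and no shift common to a set of dishes, so neither was covered.

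The members and the gene lists were chosen with earlier results of these data known. All 8 members were named, with up to 2 genes higher and 2 lower per list by size of the acid effect, 6 receptors and the 3 most alike genes per member. NFKB1, TNFAIP3, IL6 and PF4V1 were added after their values were seen. Promoter sequences came from RefSeq (GRCh38.p14) and gene positions from GENCODE 29.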

Additional observations from a re-analysis of the deposited data

Results flagged for a closer look

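The rule used 28 groups of 6 or 7 libraries, each a member, a medium and a set of dishes. It compared the gap of the highest or lowest library to the next with the group's range. The gap exceeded the limit in 5 groups, but that limit assumes independent values without a trend. Time courses do not meet this, so the count was not set against a rate by chance. In neutral medium CXCL8 at 4 h (109 FPKM, next 3.96), CCL20 at 4 h (32.3 FPKM, next 4.39) and CXCL3 at 4 h (2.81 FPKM, next 0.847) all came from the same library. CXCL1 was at 0.192 FPKM at 8 h and 0.0312 FPKM at 52 h in neutral medium, where the other libraries of each group were at 0. A group with all other libraries at 0 exceeds the limit whatever the remaining value is.

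The effect of acid differed between 28 to 52 h and 4 to 24 h for CCL20 (1.44, adjusted p = 0.0352), CXCL8 (2.69, adjusted p = 0.00697) and CXCL14 (−3.05, adjusted p = 7.34e-04) on the log2 scale, by limma's interaction test. The slope per 24 h at pH 6.3 differed from that at pH 7.4 for CCL2 (−0.81, adjusted p = 0.0276), CCL20 (1.36, adjusted p = 0.00414), CXCL8 (2.31, adjusted p = 9.89e-04) and CXCL14 (−2.69, adjusted p = 1.71e-07). Of all genes 17.1% passed the interaction test and 26.3% that of slopes. No interaction call of a member held without the 6 libraries of low depth or uneven GC content. With the set of dishes as a term only CXCL14 kept its call for the slopes.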

How the results depend on the processing

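Counts of members here cover the 4 that averaged at least 1 FPKM, also in the fit without a filter, where other members passed as given above. For the acid effect over the whole course, 2 members were higher and 2 lower with another pseudocount (0.1), no filter, upper-quartile scaling, quantile normalization, without the time point as a block (7177 genes called with no replicate block, against 7066), without the 8 and 12 h pairs, and without any 1 time point. The fit without the block changed no other call of a member either. Without 6 libraries (the 2 of low depth and the 4 of uneven GC content) 1 member was higher, since CXCL8 then differed by 1.56 (adjusted p = 0.0866). The calls within 28 to 52 h held under every alternative run.

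Within 4 to 24 h 0 members were higher in place of 1 with no filter, without the 8 and 12 h pairs, and without the 6 libraries, and 1554, 227 and 3 genes were called in place of 3156. CXCL8 then reversed to −0.13 without the 8 and 12 h pairs and to −0.44 without the 6 libraries. Leaving out 1 time point gave 0 to 2 members higher and 1021 to 4732 genes called (1200, 1021, 1410 and 1733 without the 12, 16, 20 and 24 h pairs). CXCL8 was −0.02, −0.05 and −0.23 without the 8, 20 and 24 h pairs, and CXCL14 was 0.08 without the 24 h pair. None of these reversed values passed the threshold.

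For the difference between late and early effects, 1 member was higher in place of 2 with no filter, with quantile normalization and without the 8 and 12 h pairs (707 genes called in place of 2025). Without the 6 libraries 0 were higher, 0 lower and 2 genes were called. Leaving out 1 time point gave 1 to 2 members higher and 1291 to 2651 genes called.

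With the set of dishes as a term, the trend at pH 6.3 gave 0 members higher in place of 2 and 1714 genes in place of 5672, and CCL2 reversed to −0.39. The trend at pH 7.4 gave 0 higher in place of 2 and 49 genes in place of 2114, and the trend difference 0 higher and 1 lower in place of 2 each and 173 genes in place of 3108. At pH 7.4, 1 member was higher without the 8 and 12 h pairs and without the 6 libraries (1241 genes), and 1 to 2 were when 1 time point was left out. Without the 4 h pair the slopes of CCL20 and CXCL8 at pH 7.4 reversed to 0.24 and 0.38. For the trend difference 1 member was lower with no filter, without the 8 and 12 h pairs (1936 genes) and without the 6 libraries (1723 genes), and 1 to 2 were when 1 time point was left out. Fits with fewer libraries or more terms have fewer residual degrees of freedom. In the fits within time points, leaving out the 6 libraries in effect left out their whole pairs. Beyond that, the cause was not tested. Depth limits CXCL1, CXCL2 and the receptors near 0, whose values rest on few fragments.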
